A study of Mus musculus with 2 samples.

Results

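Connexins are the proteins of gap junctions. Each connexin crosses the membrane several times, connexins assemble into a ring that forms a hemichannel, and hemichannels of neighbouring cells dock to make a pore through which ions, second messengers and small metabolites pass from cell to cell. Different cell types use different connexins, and carcinoma cells often show altered gap junction coupling. The 5 connexin genes described here are Gja1, Gjb2, Gjb5, Gjc1 and Gja4, found by their symbols among the 19070 genes of the deposited tables. They were chosen with their unique molecular identifier (UMI) counts in these libraries known, so their values are a description. The files hold 15 other connexin genes and 3 pannexin genes.

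The tissue was Lewis lung carcinoma (LLC), a lung cancer line of the mouse, grown under the skin of mice and read cell by cell as RNA. The control library came from tumours of mice given an IgG2a isotype antibody, although the series text calls these cells untreated. The other library came from tumours treated with antibody to PD-1, a checkpoint receptor that restrains T cells, and was collected 7 days after treatment. No time is given for the control, and neither the number of mice nor their strain, age or any pooling is given in the sources used here. There was 1 library per group, so the differences have no replicate check and no test was made. All intervals are 95% intervals of counting error only.

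The control library held 8441 barcodes and 113268618 UMIs, and the anti-PD-1 library held 9423 barcodes and 115407230 UMIs. The libraries shared 107 barcodes. Cells were assigned to classes by UMIs of marker genes, and levels are counts per 1000000 UMIs (CPM) over the summed cells of a class. LLC-like cells, with UMIs of at least 2 of Hmga2, Igf2bp1, Igf2bp2, Igf2bp3 and Wnt7b, numbered 3773 in the control and 5435 in the anti-PD-1 library. Macrophage-like cells numbered 779 and 906, endothelial-like cells 52 and 30, fibroblast-like cells 29 and 40, and mural-like cells, which wrap vessels, 7 and 4. Cells that met no rule numbered 2118 and 1650, and cells with markers of several classes 893 and 596. The LLC-like class is a range of a marker score, with its limit at 500 CPM of the 5 markers. Near this limit, 159 control and 200 anti-PD-1 LLC-like cells lay below 600 CPM. Cells of any class between 400 and 600 CPM numbered 685 and 679. No marker of another class was among the 10 genes highest by fold in any of the 10 classes compared. The calls used most of these markers, so the absence of other classes' markers was largely set by the rule. The fibroblast-like class had none of its own markers among its 10 genes, being led by Igfbp5, Col1a2 and Lox. The depth of the classes differed, from a median of 16721 UMIs in control LLC-like cells to 713.5 in control neutrophil-like cells.

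The genes lie on 4 chromosomes of GRCm38 and all are protein-coding, with no other annotated gene overlapping them. Gja1 (ENSMUSG00000050953) is at chr10:56377330-56402513 on the plus strand. Gjb2 (ENSMUSG00000046352) is at chr14:57098600-57104702, Gjc1 (ENSMUSG00000034520) at chr11:102799579-102819700, Gjb5 (ENSMUSG00000042357) at chr4:127354809-127358181 and Gja4 (ENSMUSG00000050234) at chr4:127311421-127314039, all on the minus strand.

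The 250 bases before the RefSeq start of Gja1 and of Gja4 are shown because these were the members with the widest differences between libraries among those with enough UMIs to compare. Capitals mark matches, on either strand and with overlaps allowed, to AP-1 (TGANTCA), the GC box (GGGCGG), the E-box (CACGTG), the TATA box (TATAAA) and the TEAD motif (GGAATG). The Gja1 stretch is chr10:56377050-56377299 on the plus strand and the Gja4 stretch chr4:127314040-127314289 on the minus strand, from RefSeq on GRCm38.p6.
Gja1: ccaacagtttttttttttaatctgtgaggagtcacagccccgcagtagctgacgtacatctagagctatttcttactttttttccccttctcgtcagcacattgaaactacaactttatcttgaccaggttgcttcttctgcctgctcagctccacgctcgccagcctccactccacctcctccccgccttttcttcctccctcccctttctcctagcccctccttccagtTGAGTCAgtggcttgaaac
Gja4: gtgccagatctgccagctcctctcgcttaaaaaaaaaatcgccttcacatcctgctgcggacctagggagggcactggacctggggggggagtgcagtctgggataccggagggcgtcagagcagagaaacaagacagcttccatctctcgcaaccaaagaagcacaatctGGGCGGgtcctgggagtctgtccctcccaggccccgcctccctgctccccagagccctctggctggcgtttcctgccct
The Gja1 stretch held 1 match, to AP-1, beginning 19 bases before the start, and 6.75% of 32851 promoter stretches of this length held that motif. The Gja4 stretch held 1 match, to the GC box, beginning 79 bases before the start, and 32.7% of the stretches held that motif. These matches are letters in a sequence, and no binding was measured. Of the 5 genes, 4 had a stretch in the RefSeq table, and Gjc1 did not.

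Gja1, the most widely expressed connexin of mammals, had a higher level in LLC-like cells after anti-PD-1. It had 72141 UMIs in the control LLC-like cells, 848 CPM (842 to 855), and 130544 UMIs in the anti-PD-1 LLC-like cells, 1402 CPM (1395 to 1410). The level was 1.65 times as high in the anti-PD-1 library, a log2 ratio of 0.72 (0.71 to 0.74), and the intervals of the levels did not overlap. Among the 11849 genes with at least 100 UMIs in LLC-like cells, 2.19% had a higher ratio. The difference was a shift across cells: with each cell thinned to 3000 UMIs, 85.6% of control cells and 95.1% of anti-PD-1 cells had a Gja1 UMI, and the median was 2 UMIs per cell in the control and 4 in the anti-PD-1 library. Thinning left out 96 control and 92 anti-PD-1 cells, and without it the shares were 97.6% and 98.9%. The upper 10% of thinned cells began at 6 UMIs in the control and at 9 in the anti-PD-1 library.

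Gjb5, a connexin known from skin and trophoblast, had a lower level in LLC-like cells after anti-PD-1. Its level was 79.5 CPM (77.6 to 81.4; 6760 UMIs) in the control and 64.0 CPM (62.4 to 65.7; 5962 UMIs) in the anti-PD-1 library, a log2 ratio of -0.31 (-0.36 to -0.26). In thinned cells the share with a Gjb5 UMI was 19.9% in the control and 17.0% after anti-PD-1. Gjc1, a connexin of vessel walls and the heart's conduction system, was at 58.4 CPM (56.8 to 60.0; 4964 UMIs) and 53.6 CPM (52.1 to 55.1; 4987 UMIs), a log2 ratio of -0.12 (-0.18 to -0.07). The thinned shares of cells with a Gjc1 UMI were 14.6% and 13.8%. Both ratios lay beyond counting error over all LLC-like cells but not under every setting. The interval of Gjc1 included 0 in thinned cells (-0.048, -0.20 to 0.11) and without cells high in Gria3 and Gpnmb (-0.055, -0.12 to 0.0058). That of Gjb5 included 0 in cells of 3000 to 10000 UMIs (-0.056, -0.24 to 0.13).

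Gja4, a connexin of arterial endothelium, had 79 UMIs in control LLC-like cells, 0.929 CPM (0.736 to 1.16), and 39 UMIs in anti-PD-1 LLC-like cells, 0.419 CPM (0.298 to 0.573). The log2 ratio was -1.15 (-1.74 to -0.58). These UMIs were spread over 74 control and 29 anti-PD-1 cells, with at most 4 in 1 cell. LLC-like cells with an endothelial marker UMI had 0.981 CPM in the control and 0.557 CPM in the anti-PD-1 library, against 0.876 and 0.368 CPM in LLC-like cells without one. The part of RNA from vessel cells in these levels was not tested. Gjb2, a connexin of epithelia and the inner ear, had 9 UMIs in control and 1 UMI in anti-PD-1 LLC-like cells, too few for the 100 UMI minimum.

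Read against all genes, 0 of the 4 members above the minimum were over 2-fold higher in the anti-PD-1 LLC-like cells, where 0.819% of 11849 genes were. One member, Gja4, was over 2-fold lower, where 3.11% of genes were. Its log2 ratio came within 2-fold without cells high in Gria3 and Gpnmb (-0.99) and without cells with a vomeronasal receptor UMI (-0.97). The median log2 ratio of the 4 was -0.22, beside -0.00459 over all genes. Since the members were picked with these counts known, nothing is read from the counts.

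**Figure D1:**
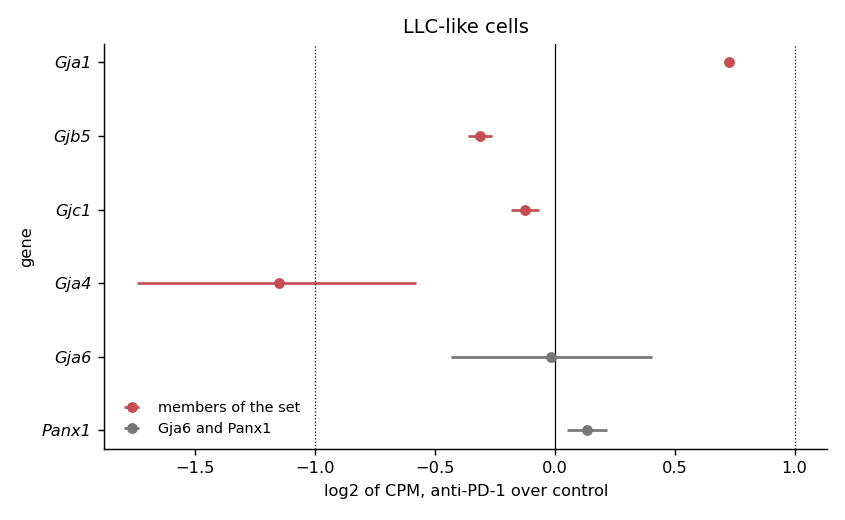
Log2 ratio of the level (CPM) in LLC-like cells, anti-PD-1 over control, for 4 members with at least 100 UMIs and for Gja6 and Panx1; bars are 95% counting intervals and dotted lines mark 2-fold. Gja1 lies at 0.72 to the right of 0 and Gja4 at -1.15, with Gjb5 and Gjc1 between them at -0.31 and -0.12.

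Among cell classes, Gja1 was not limited to tumour cells. The highest levels in the control were 913 CPM (844 to 986; 656 UMIs) in endothelial-like cells, 848 CPM in LLC-like cells and 845 CPM (759 to 939; 348 UMIs) in fibroblast-like cells, and their intervals overlapped. A single control endothelial-like cell of 189155 UMIs, where the class median was 5886, held 26.3% of the UMIs of its class, 205 of the 656 Gja1 UMIs and 94 of the 184 LLC marker UMIs. Without it the class was at 852 CPM (775 to 934). In the anti-PD-1 library, LLC-like cells at 1402 CPM and endothelial-like cells at 1377 CPM (1229 to 1536; 318 UMIs) overlapped, and fibroblast-like cells stood at 1138 CPM (1035 to 1248; 446 UMIs). Macrophage-like cells were next, at 524 CPM (502 to 546) and 503 CPM (483 to 523). Averaging each cell's own CPM gave them 299.6 and 383 CPM. The other immune classes ranged from 91.4 CPM in T cell-like cells to 285 CPM in neutrophil-like cells of the control. In the anti-PD-1 library the same classes marked the range, at 136 and 266 CPM. Mural-like cells had 19 UMIs (272 CPM) in 7 control cells and 0 UMIs in 4 anti-PD-1 cells, where 0 allows up to 263 CPM.

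Between libraries, the log2 ratio of Gja1 was 0.59 (0.39 to 0.79) in endothelial-like cells, or 0.69 (0.48 to 0.90) without the deepest control cell, 0.43 (0.22 to 0.64) in fibroblast-like cells and 0.58 (0.53 to 0.62) in cells that met no rule. In macrophage-like cells it was -0.06 (-0.14 to 0.02), and in monocyte-like cells -0.09 (-0.43 to 0.26). The macrophage-like value depended on how cells were weighted. Averaged over cells thinned to 3000 UMIs, which left out 370 control and 378 anti-PD-1 cells, it was 1.10 Gja1 UMIs in the control and 1.40 in the anti-PD-1 library, and the mean of each cell's own CPM was also higher in the anti-PD-1 library. Summed UMIs give deep cells more weight, and they showed no difference beyond counting error.

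**Figure D2:**
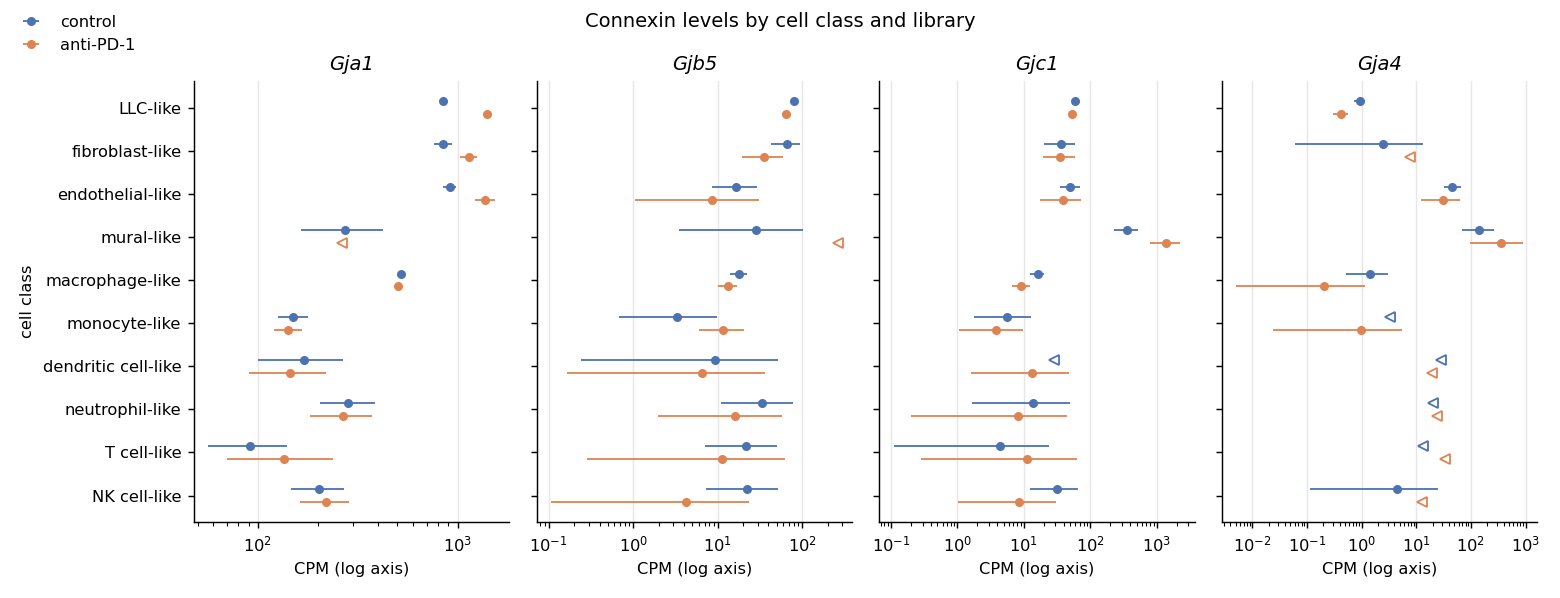
Level of 4 connexins (CPM, log axis; the axes differ between panels) in 10 cell classes of the control and anti-PD-1 libraries, with 95% counting intervals; open triangles mark the limit that 0 UMIs allow. Gja1 is high in LLC-like, fibroblast-like and endothelial-like cells (845 to 1402 CPM) and Gja4 and Gjc1 are highest in mural-like cells, of which there were 7 and 4.

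Tumour cells made up most of the RNA, so the level of the 5 LLC markers was read beside Gja1 in each class. The markers were at 1253 and 1382 CPM in LLC-like cells of the control and anti-PD-1 libraries, at 256 and 147 CPM in endothelial-like cells, at 136 and 204 CPM in fibroblast-like cells and at 247 and 185 CPM in macrophage-like cells. These markers also define the classes. LLC-like cells had to reach 500 CPM of them, and a cell of another class could have at most 500 CPM or a single UMI. The lower marker levels of the other classes were thus set by the rule, and Gja1 was not compared between classes per marker UMI.

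Cells with no LLC marker UMI were then read alone. In endothelial-like cells without one, Gja1 was at 1002 CPM (796 to 1246) in 22 control cells and 1518 CPM (1219 to 1868) in 16 anti-PD-1 cells. Fibroblast-like cells without one were at 711 CPM (460 to 1049) in 7 cells and 870 CPM (697 to 1073) in 16. Macrophage-like cells without one were at 244 CPM (215 to 276) in 363 cells and 342 CPM (313 to 372) in 465, below the 524 and 503 CPM of the whole class. Monocyte-like cells without one were at 76.8 CPM (55.8 to 103) and 133 CPM (106 to 165). In both of these immune classes the anti-PD-1 level was the higher, with intervals apart, which was not so over the whole classes. The median depths of these macrophage-like cells were 2422 and 2595 UMIs. The share of free tumour RNA in the Gja1 UMIs of immune classes was not tested.

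**Figure D3:**
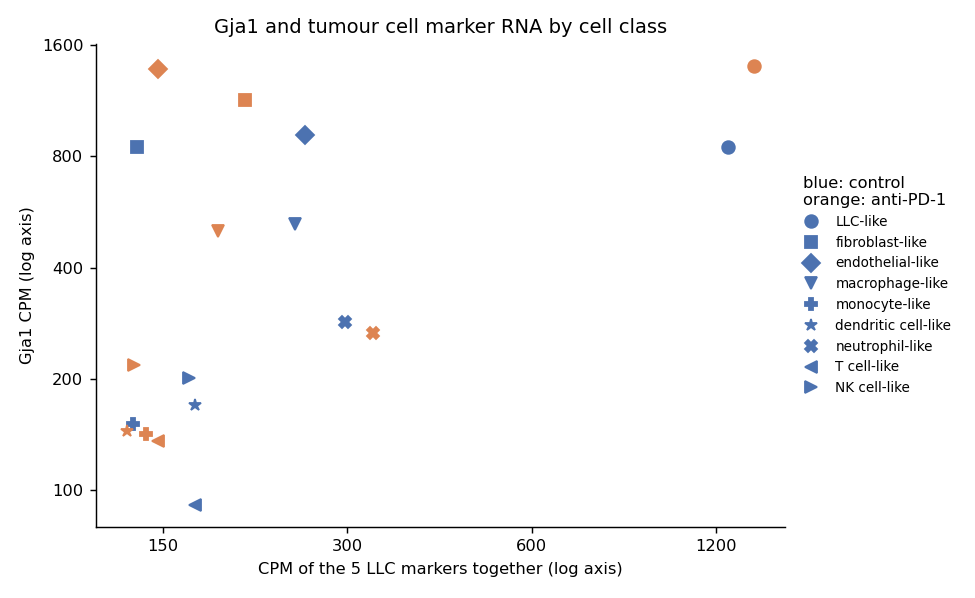
Gja1 level (CPM, log axis) against the summed level of the 5 LLC markers (CPM, log axis), 1 point per cell class and library; the mural-like class is left out for its 11 cells. Endothelial-like and fibroblast-like cells have 845 to 1377 CPM of Gja1 at 136 to 256 CPM of LLC markers, where LLC-like cells have 1253 and 1382 CPM. The class rule kept cells of the other classes at or below 500 CPM or a single UMI of these markers.

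Most Gjb5 UMIs were in LLC-like cells, 84.2% in the control and 89.4% in the anti-PD-1 library. These cells also held most UMIs of all genes, 85033749 of 113268618 in the control and 93094355 of 115407230 in the anti-PD-1 library. By level, LLC-like cells were at 79.5 and 64.0 CPM. Macrophage-like cells were at 17.8 CPM (14.0 to 22.3) and 13.2 CPM (10.2 to 16.9), and endothelial-like cells had 12 and 2 UMIs. In macrophage-like cells without an LLC marker UMI, Gjb5 was at 6.81 CPM (2.74 to 14.0) and 6.65 CPM (3.19 to 12.2). Fibroblast-like cells had 27 UMIs in the control, 65.6 CPM (43.2 to 95.4), and 14 UMIs in the anti-PD-1 library, 35.7 CPM (19.5 to 59.9). Their control interval included the LLC-like level, and their anti-PD-1 interval lay below it.

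Gjc1 and Gja4 had their highest levels in mural-like cells, in few cells. Gjc1 had 25 UMIs in 4 of 7 control mural-like cells, 358 CPM (232 to 529), and 16 UMIs in 1 of 4 anti-PD-1 mural-like cells, 1403 CPM (802 to 2278). Gja4 had 10 UMIs in 4 of the 7 cells, 143 CPM (68.8 to 264), and 4 UMIs in the same single anti-PD-1 cell, 351 CPM (95.6 to 898). That cell was the deepest of its 4, with 6513 UMIs, and the others had 680 to 2519 UMIs, so no difference between libraries can be read from this class.

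Endothelial-like cells had 36 Gjc1 UMIs in the control, but 27 of them were in the 4 cells that also had a UMI of the mural genes Rgs5, Notch3, Cspg4, Higd1b or Myh11. One of the 4 was the cell of 189155 UMIs, with 9 of the 27. The level was 101 CPM (66.9 to 148) in those 4 cells and 19.9 CPM (9.10 to 37.8) in the other 48. In the anti-PD-1 library it was 73.3 CPM (19.97 to 188) in 3 such cells and 28.3 CPM (9.20 to 66.1) in the other 27. All 4 UMIs of the 3 cells were in 1 cell, the deepest of its class with 45673 UMIs. Cells with a UMI of any mural marker, a wider list, were then read without the deepest cell of each library. They were at 94.7 CPM (58.6 to 145) in 12 control cells and 14.9 CPM (0.38 to 82.9; 1 UMI) in 10 anti-PD-1 cells. Whether endothelial-like cells with mural UMIs are joined cells was not tested.

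Gja4 had 33 UMIs in control endothelial-like cells, 45.9 CPM (31.6 to 64.5), and 7 UMIs in anti-PD-1 endothelial-like cells, 30.3 CPM (12.2 to 62.4). A single control cell held 22 of the 33, and 1 anti-PD-1 cell, the deepest of its class, held 5 of the 7. Without that cell the anti-PD-1 level was 10.8 CPM (1.31 to 38.98). With each cell's own CPM averaged the levels were 107 and 11.8 CPM. Only 7 of 52 and 3 of 30 cells had a Gja4 UMI. Against the 0.929 and 0.419 CPM of LLC-like cells the endothelial-like level was far higher in each library. No Gja4 UMI was seen in T cell-like, dendritic cell-like or neutrophil-like cells, where 0 UMIs allow 13.1 to 34.0 CPM. Of all Gja4 UMIs in the control, 43.4% were nevertheless in the far more numerous LLC-like cells.

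Gjb2 had 46 UMIs in the whole control library and 11 in the anti-PD-1 library. Cells that met no rule held 47.8% and 45.5% of them, and endothelial-like, fibroblast-like and mural-like cells held none. To read so few UMIs, 240 vomeronasal receptor genes, which serve pheromone sensing in the nose, were counted alongside. This comparison was chosen after the counts were seen. Their median was 20 UMIs in the control and 4 in the anti-PD-1 library, and Gjb2 was above 223 and 220 of the 240. The log2 ratio between libraries was -2.09 (-3.19 to -1.12) for Gjb2 and -2.19 for the receptor genes summed.

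These UMIs were concentrated in shallow barcodes. In control barcodes under 1000 UMIs, Gjb2 was at 15.1 CPM and the receptor genes at a mean of 11.97 CPM per gene. In control barcodes over 30000 UMIs, Gjb2 was at 0.0977 CPM and the receptor genes at 0.0309. Gja4 fell less with depth, from 11.6 CPM to 0.821 CPM, and Gjb5 was at 33.7 CPM in the shallowest and 77.0 CPM in the deepest barcodes. In LLC-like cells, Gja4 at 79 UMIs was above all 240 receptor genes in the control, whose highest had 64, and at 39 UMIs above 239 of them in the anti-PD-1 library. Gjb2 at 9 UMIs was above 218 in the control, and at 1 UMI above 116 in the anti-PD-1 library. Gjb2 thus lay within the range of these receptor genes in each library. Summed over the 240, the receptor genes fell more steeply than Gja4, from 1032 UMIs in control to 319 UMIs in anti-PD-1 LLC-like cells. Whether the Gja4 ratio reflects the same fall was not tested.

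**Figure D4:**
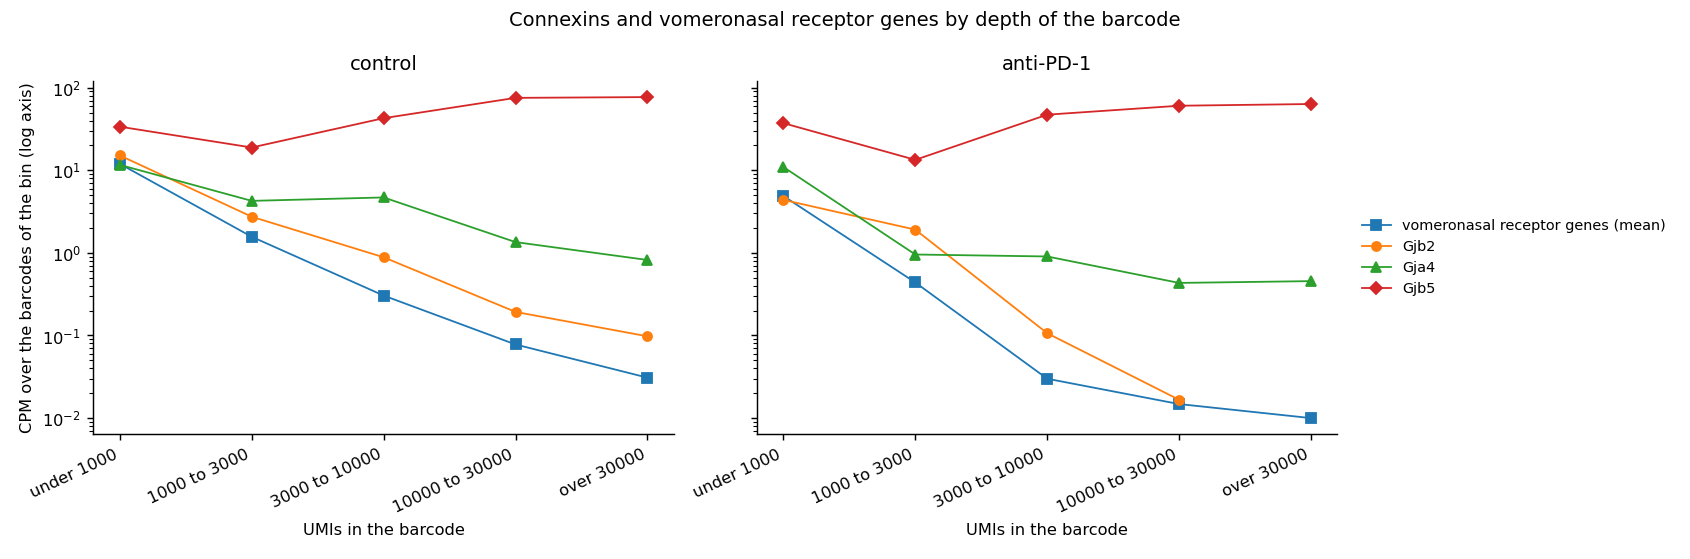
Level (CPM, log axis) of Gjb2, Gja4, Gjb5 and the mean of 240 vomeronasal receptor genes over barcodes grouped by their total UMIs, in each library; a point is left out where a gene had 0 UMIs. Gjb2 follows the receptor genes down with depth, from 15.1 to 0.0977 CPM in the control, while Gjb5 is higher in the deepest barcodes than in the shallowest.

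LLC-like cells were next compared across 9 states, each scored by a few marker genes. High cells were the 20% with the highest marker rate over both libraries, and low cells were those at or below the median rate. For Il24 and Msln, ties at the median put more than 50% of cells in the low group, 1957 control and 3917 anti-PD-1 cells. High cells are unevenly split between the libraries in some states. For example, 30.3% of control and 12.8% of anti-PD-1 LLC-like cells were high in Il24 and Msln, and 6.07% and 29.7% were high in Dkk2 and Col8a1. The levels below are within each library. Where cells were thinned, states were scored again on the thinned counts, so the high and low cells can be other cells. Over these comparisons the log2 ratios of Gja1, Gjb5 and Gjc1 ran from -0.56 to 0.60.

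Gja1 had the highest of these ratios. In control cells high in Ptn and Lum, both secreted matrix or growth factor genes, it was at 1130 CPM against 743 CPM in low cells, a log2 ratio of 0.60 (0.58 to 0.63). In the anti-PD-1 library the values were 1613 and 1338 CPM, a log2 ratio of 0.27 (0.25 to 0.29). Macrophage RNA also differed with this state: the C1q genes were at 282 CPM in high and 177 CPM in low cells of the control, and at 182 and 133 CPM in the anti-PD-1 library. The LLC markers were lower in high cells, at 1072 against 1309 CPM and 1123 against 1450 CPM. The part of either in the Gja1 and Gjb5 ratios was not tested. Mitotic cells, scored by Mki67, Top2a and other division genes, were lower: 759 against 1013 CPM in the control and 1163 against 1651 CPM in the anti-PD-1 library, log2 ratios of -0.42 (-0.44 to -0.39) and -0.51 (-0.53 to -0.48). Mitotic cells were deeper, with a median of 22184 UMIs against 12543.5 in the control and 19954 against 10991.5 in the anti-PD-1 library. Thinned to 3000 UMIs and scored again, the ratios were -0.35 and -0.49.

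Cells high in Il24, a cytokine gene, and Msln, a surface protein of mesothelium and carcinomas, had less Gja1 in each library, with log2 ratios of -0.54 (-0.56 to -0.51) and -0.24 (-0.27 to -0.21). Median depths of these high and low cells were 18020 and 13355 UMIs in the control, and 10801.5 and 12207 in the anti-PD-1 library. Hypoxic cells, scored by genes such as Car9 and Bnip3, had more Gja1, at 0.45 (0.43 to 0.48) and 0.25 (0.23 to 0.28). Cells high in Dkk2 and Col8a1 had log2 ratios of 0.42 (0.37 to 0.46) and 0.19 (0.17 to 0.21), and those high in Gria3 and Gpnmb 0.18 (0.15 to 0.22) and 0.30 (0.28 to 0.32). The state marked by Ncam1, a neural adhesion molecule, and F2r, a thrombin receptor, differed between libraries. Its log2 ratio was 0.44 (0.41 to 0.47) in the control and -0.00279 (-0.03 to 0.02) in the anti-PD-1 library. In its high and low cells the C1q genes were at 238 and 188 CPM in the control and 154 and 144 CPM in the anti-PD-1 library. The LLC markers were at 1106 and 1300 CPM in the control and 1223 and 1437 CPM in the anti-PD-1 library. The part of either in the Gja1 and Gjb5 ratios of this state was not tested. Gja1 ratios of the interferon and amino acid stress states lay between -0.20 and 0.06.

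Within every one of the 9 states, high cells of the anti-PD-1 library had more Gja1 than high cells of the control. The log2 ratio ran from 0.45 in cells high in Ncam1 and F2r or in Dkk2 and Col8a1 to 0.86 in cells high in Il24 and Msln. Without the cells high in Il24 and Msln, the ratio over LLC-like cells was 0.61, and without those high in Gria3 and Gpnmb it was 0.68.

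Gjb5 and Gjc1 also differed between states. Gjb5 was lower in cells high in Ptn and Lum, at 63.6 against 83.7 CPM in the control and 48.4 against 67.7 CPM in the anti-PD-1 library, log2 ratios of -0.39 (-0.50 to -0.29) and -0.48 (-0.60 to -0.37). In cells thinned and scored again these were -0.79 and -0.78. It was also lower in cells high in Ncam1 and F2r, at -0.41 (-0.52 to -0.31) and -0.25 (-0.36 to -0.14), and higher in hypoxic cells, at 0.37 (0.29 to 0.46) and 0.13 (0.02 to 0.24). In cells high in Ptn and Lum, Gja1 and Gjb5 thus stood on opposite sides of the low cells in each library. Gjc1 was lower in cells high in Gria3, a glutamate receptor subunit, and Gpnmb, at 45.7 against 59.6 CPM in the control and 40.9 against 60.3 CPM in the anti-PD-1 library, log2 ratios of -0.38 (-0.54 to -0.23) and -0.56 (-0.67 to -0.45). With cells thinned to 3000 UMIs and scored again, the control ratio was -0.061 (-0.50 to 0.36), within counting error. Thinning changed both the depth and the choice of cells, and their parts in this were not tested. In mitotic cells Gjc1 was higher, at 0.17 (0.06 to 0.27) and 0.21 (0.10 to 0.31).

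**Figure D5:**
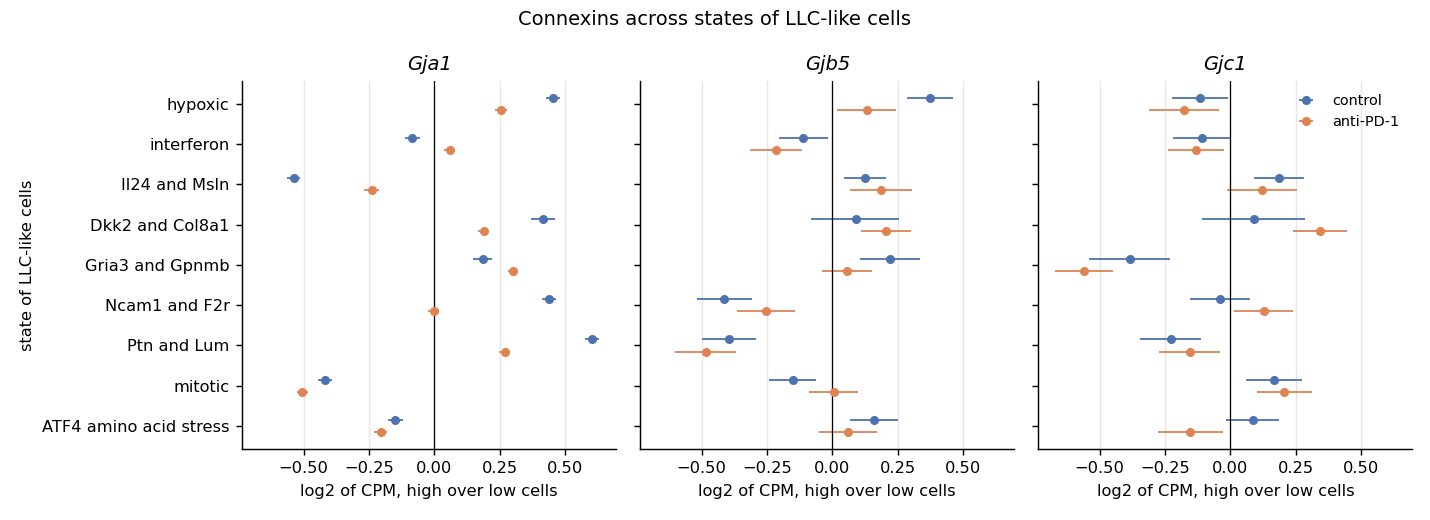
Log2 ratio of the level (CPM) in high over low LLC-like cells of 9 states, for Gja1, Gjb5 and Gjc1 in each library, with 95% counting intervals. Gja1 is lower in mitotic cells of each library (-0.42 and -0.51) and higher in cells high in Ptn and Lum (0.60 and 0.27), where Gjb5 is lower (-0.39 and -0.48).

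Gja4 had few UMIs for such a split. In the anti-PD-1 library 16 of its 39 LLC-like UMIs were in the 715 hypoxic cells, 1.43 CPM, and 11 in the 3277 low cells, 0.203 CPM, a log2 ratio of 2.82 (1.62 to 4.07). In the control the hypoxic cells had 30 UMIs and the low cells 24, a log2 ratio of 0.51 (-0.32 to 1.34). Between libraries the hypoxic cells, at 1.25 and 1.43 CPM, differed by less than counting error, with a log2 ratio of 0.19 (-0.78 to 1.11).

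Gja1 differed little between cells with and without a UMI of Gjb5 or Gjc1. In thinned LLC-like cells with a Gjb5 UMI, the mean was 2.71 Gja1 UMIs in the control and 4.71 in the anti-PD-1 library, against 2.69 and 4.53 in cells without one. With a Gjc1 UMI the means were 2.73 and 4.27, against 2.69 and 4.61 without.

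Gja6 and Panx1, of the connexin and pannexin families, were read in the same LLC-like cells. The connexin Gja6 was at 1.12 CPM (95 UMIs) in the control and 1.11 CPM (103 UMIs) in the anti-PD-1 library, a log2 ratio of -0.014 (-0.43 to 0.40). Panx1, a pannexin that forms membrane channels, was at 25.1 CPM (2131 UMIs) and 27.5 CPM (2563 UMIs), a log2 ratio of 0.14 (0.05 to 0.22). Gja6 differed by less than counting error, and Panx1 by far less than Gja1.

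Partners and regulators of connexins, such as scaffold, cadherin, trafficking and kinase genes, were read next. Of 34 listed, 33 were in the files and 31 had at least 100 UMIs in LLC-like cells, of which 0 passed 2-fold in either direction. Passing this limit was rare in the whole set of 11849, at 0.819% upward and 3.11% downward. A count of 0 among 31 thus does not set the partners apart from other genes. The median log2 ratio of the 31 partners was -0.05, from -0.53 to 0.40. The highest were Prkca, a protein kinase C that phosphorylates connexins (63.0 and 82.9 CPM, 0.40), Cav1, a caveolin (550 and 680 CPM, 0.30), Cdh2, N-cadherin (48.7 and 56.4 CPM, 0.21) and Dctn1, a dynactin subunit (232 and 263 CPM, 0.18). The lowest were Dbn1, drebrin (10.8 and 7.47 CPM, -0.53), Ywhaq (51.4 and 38.9 CPM, -0.40), Vcl, vinculin (557 and 453 CPM, -0.30) and Rab11a (86.6 and 71.2 CPM, -0.28). The ratio of Gja1 was above that of every partner measured.

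The genes whose levels most resembled those of the members were sought over 14 class and library sums of at least 50 cells. For Gja1 they were Fgfr1 (Pearson r of 0.97), Pcdhgc5 (0.97) and Tspan4 (0.96), for Gjb5 Wfdc2 (0.93), Gpatch4 (0.93) and Xpot (0.92), and for Gjc1 Dctn2 (0.95), Slc30a4 (0.94) and Ipo5 (0.94). The 14 sums share 2 libraries and differ mainly in whether they are tumour cells. Gjb2 and Gja4 had fewer than 200 UMIs over these sums.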

How the data were processed

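Single-cell libraries of control and anti-PD-1 LLC tumours were analysed, 1 each. Per the file headers, the deposited values are raw counts of UMIs, with no scaling by the authors. Both a 10x Flex probe kit and a 3' kit appear in the labels' protocol. The submitters' processing notes name Cell Ranger 7.0.1 and mm10; the matrix header names 9.0.1. Counts per probe or transcript length were not computed, so a UMI count set beside that of another gene is not a comparison of expression.

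Of the barcodes, 8395 and 9422 passed a minimum of 300 genes and a limit of 20% mitochondrial UMIs. A class needed at least 4 UMIs of at least 2 of its markers and 1000 CPM; LLC-like cells needed 3 UMIs and 500 CPM and no other class. Of the listed markers, 6 were left out of calls after their values were seen. No doublet caller was run; mixed cells were left out by marker. Ratios are of summed counts with exact binomial intervals, levels have exact Poisson intervals and shares Clopper-Pearson intervals (scipy 1.17.1). The ratio was tested on simulated data. edgeR 4.0.16 and DESeq2 1.42.0 gave alternative scalings only. Gene positions are from GENCODE models of GRCm38.

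Members, lists and states were chosen with earlier results of these data known. Named were all members, other connexins and pannexins with at least 100 UMIs (some are not reported here), up to 4 highest and lowest list genes with at least 200 UMIs, and the 3 genes most like each member.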

Additional observations from a re-analysis of the deposited data

How the results depend on the processing

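No paired analysis was possible because each group has 1 library. The directions of all 5 members in LLC-like cells held under every alternative that gave a value, 67 in all: 56 stayed within the main interval and 11 did not. Some alternatives could hardly differ: using all deposited barcodes gave the same 3773 and 5435 cells. The edgeR and DESeq2 scalings shifted all ratios by only -0.007 and -0.005. Gjb2 had no value in cells of 3000 to 10000 UMIs, over 30000 UMIs or thinned to 3000. Its other alternatives all lay within its wide main interval, -8.75 to -0.45. The Gjb2 interval included 0 without cells over 3 times the median UMI count (upper end 0.21). It also did without cells with a vomeronasal receptor UMI (1.80) and in cells of 10000 to 30000 UMIs (1.60). Gja1 (0.72) was 0.61 without cells high in Il24 and Msln, 0.68 without cells high in Gria3 and Gpnmb, 0.65, 0.69 and 0.66 in cells of 3000 to 10000, 10000 to 30000 and over 30000 UMIs, and 0.76 thinned. Gjb5 (-0.31) was -0.056 in cells of 3000 to 10000 UMIs and -0.22 thinned. Gjc1 (-0.12) was -0.055 without cells high in Gria3 and Gpnmb, -0.23 in cells of 3000 to 10000 UMIs and -0.048 thinned. Gja4 (-1.15) was within 2-fold without cells high in Gria3 and Gpnmb (-0.99) and without cells with a vomeronasal receptor UMI (-0.97). Its interval included 0 in cells over 30000 UMIs (-1.18, -2.53 to 0.0092) and thinned (-1.39, -3.31 to 0.35). The depth ranges, the receptor setting, the deepest-cell setting and the 1.5-fold limit were chosen after seeing the data. With each cell's own CPM averaged, Gja1 in macrophage-like cells was 299.6 CPM (control) and 383 CPM (anti-PD-1), in anti-PD-1 endothelial-like cells 1226 CPM, and Gja4 in endothelial-like cells 107 and 11.8 CPM. Without the deepest cell, Gja4 in anti-PD-1 endothelial-like cells was 10.8 CPM. In the upper 10% and in thinned cells, state ratios for Gja1 were -0.39 and -0.35 (mitotic, control), -0.54 (mitotic, anti-PD-1, upper 10%), 0.79 and 0.57 (Ptn and Lum, control), 0.39 and 0.38 (Ptn and Lum, anti-PD-1), 0.56 and 0.34 (Ncam1 and F2r, control), and 0.073 and 0.062 (Ncam1 and F2r, anti-PD-1). For Gjb5 with Ptn and Lum they were -0.75 and -0.79 (control) and -0.84 and -0.78 (anti-PD-1). For Gjc1 with Gria3 and Gpnmb they were -0.061 (control, thinned), -0.72 and -0.98 (anti-PD-1). The thinned state ratios are of cells scored again after thinning. Genes past 2-fold numbered 466 of 11849, 3294 with no UMI minimum, 209 with at least 500 UMIs and 1359 past 1.5-fold. The cause of these shifts was not tested. With 1 library per group, counting error is the only error given, and library, animal and treatment cannot be told apart.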

Other observations

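Other junction genes were read in LLC-like cells. Of 13 desmosome and tight junction genes, 6 had at least 100 UMIs, 2 of them over 2-fold lower in the anti-PD-1 library, where 3.11% of genes were. F11r, a junctional adhesion molecule, was at 5.73 CPM in the control and 2.66 CPM in the anti-PD-1 library (-1.10). Dsc2, a desmosomal cadherin named after its values were seen, had 120 and 13 UMIs. In endothelial-like cells F11r was far higher, at 913 and 1091 CPM, with a log2 ratio of 0.26 (0.04 to 0.47). Dsc2 had 10 and 0 UMIs there. The part of RNA from vessel cells in the LLC-like levels of F11r and Dsc2 was not tested. In LLC-like cells, Jup, plakoglobin (4.15 and 5.65 CPM), and Pkp3, a plakophilin (55.0 and 69.1 CPM), had log2 ratios of 0.44 and 0.33.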
